A study of Mus musculus with 12 samples.

Results

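The map of 5-hydroxymethylcytosine (5hmC) in the parental v6.5 line of mouse embryonic stem cells covers 399 CpG cytosines in 15 loci, out of 427 CpG cytosines in 17 loci with a read-out in any of the 12 samples of the series. A CpG cytosine was taken when all 6 v6.5 samples, 3 of BS-seq and 3 of oxBS-seq, had 10 or more read-outs of it, and lambda phage cytosines were left out. Another 2098 non-CpG cytosines met the same minimum and were set beside them. The v6.5 group is labelled parental and wild-type, whereas the other 6 samples come from v6.5 cells made Tet2 knock-down with an shRNA plasmid, selected with puromycin and grown from picked clones. The word knock-down also stands in the titles of the v6.5 samples, so the group was taken from the genotype label. All cells were grown in serum with LIF, and 3 replicates were given per genotype and assay. The loci were amplified by PCR after bisulfite treatment and most had been selected by the study for differential methylation between these genotypes in earlier antibody-based maps, so they are not a sample of the genome. The replicates of a genotype are separate cultures per the study's methods.

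DNA methyltransferases place a methyl group on the cytosine of a CpG, which gives 5-methylcytosine (5mC), and the TET enzymes oxidize this base to 5hmC and then to 5-formylcytosine and 5-carboxylcytosine. Embryonic stem cells express TET enzymes and hold measurable 5hmC. Bisulfite turns unmodified cytosine into a base read as T and leaves C at 5mC and at 5hmC. In oxBS-seq the DNA is first oxidized with KRuO4, after which 5hmC is read as T, and the drop of the C share from BS-seq to oxBS-seq measures 5hmC.

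The windows below, each 30 bases of the mm9 genome read 5′ to 3′ on the strand of the measured cytosine with the CpG in capitals at bases 15 and 16, show the cytosines at both ends of the map. The first 10 are the CpG cytosines with the highest scaled 5hmC among those above 0 in all 3 replicates, a choice made after their values were seen. The last 4 have a mean C share of at least 80% in BS-seq and the scaled 5hmC nearest to 0.
Near Pvt1, chr15:61868933-61868962, minus strand: tctggagagaaggaCGtactaagcaaactc
Near Pvt1, chr15:61868717-61868746, plus strand: ttgtagcacgttgcCGcgcttgactaaatg
Near Pvt1, chr15:61868819-61868848, minus strand: gcctctgcaaagaaCGaaggctggtgtgaa
Near Pvt1, chr15:61868652-61868681, plus strand: tttccacaggactcCGgtttccctctagga
Igsf21, chr4:139783722-139783751, plus strand: ctcatgcacacaaaCGtacccaccgtccta
Runx1, chr16:92644656-92644685, plus strand: aagagatcagaaaaCGtgttgtggagggga
Near Klf3, chr5:64987428-64987457, plus strand: aatgtaggtagtgaCGacgacgacgacgaa
Near Pvt1, chr15:61868755-61868784, minus strand: attcaatccagcacCGaacaggtgcacgtc
Near Pvt1, chr15:61868871-61868900, plus strand: tgtaataccctgtaCGgaccaagaatggag
Near Pvt1, chr15:61868743-61868772, minus strand: accgaacaggtgcaCGtctctagtaccatt
N4bp1, chr8:89377061-89377090, minus strand: agtggagaacaagaCGggatcctaatatca
Gata1, chrX:7539578-7539607, minus strand: ggcctatggcaagaCGgcactctaccctgc
Zbtb40, chr4:136547440-136547469, plus strand: ggccgttggcttgcCGgaagccctttccac
Zbtb40, chr4:136547429-136547458, minus strand: ttccggcaagccaaCGgcctctccatccac
Of the first 10 windows, 7 lie near Pvt1. The CpG follows an A in 7 of the first 10 and a C in 3, and in the last 4 it follows an A in 3 and a C in 1. Over all 399 CpG cytosines of the map, 113 follow an A and 108 a C. As the windows were picked by their values and most of the first 10 share a locus, these counts were not tested.

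The genomic read-outs per v6.5 sample lay between 4505229 and 13441847, and the median coverage of the 399 CpG cytosines was 1498.5. At the 27 Watson-strand cytosines of the spiked-in 5hmC control, the C share in BS-seq lay between 81.7% and 82.4%. The same control kept 19.98%, 45.6% and 23.3% C in oxBS-seq of replicates 1, 2 and 3, which gave oxidation efficiencies of 0.756, 0.443 and 0.717. Each replicate's difference between BS-seq and oxBS-seq was divided by its own efficiency, and this quotient, in percent of read-outs, is called scaled 5hmC. A difference in replicate 2 is thereby multiplied by 2.26, against 1.32 in replicate 1 and 1.39 in replicate 3.

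The mean C share over the 399 CpG cytosines was higher in BS-seq than in oxBS-seq in every replicate. In BS-seq it was 54.3%, 54.4% and 55.5% in replicates 1, 2 and 3. In oxBS-seq it was 50.8%, 50.7% and 51.4%, so the samples of the assays did not overlap. The drop of 3.56, 3.77 and 4.15 percentage points, on average 3.83 ± 0.299 (SD, n = 3), was larger than the spread between replicates, and the exact two-sided sign-flip permutation test gave p = 0.25, the smallest that 3 pairs allow. With the replicates unpaired the exact permutation test gave p = 0.1, again the smallest possible, so neither test can reach 0.05. Scaled 5hmC was 4.71%, 8.50% and 5.78%, with a mean of 6.33% ± 1.95 (SD, n = 3), and made up 11.6% ± 3.61 of the modified cytosine seen by BS-seq. The unscaled drop was not lowest in replicate 2, where the control was oxidized least, and the scaled value was highest there.

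Scaled 5hmC was found at CpG cytosines and hardly outside them. Over the 2098 non-CpG cytosines the C share was 0.568% ± 0.0195 in BS-seq and 0.533% ± 0.0118 in oxBS-seq (SD, n = 3). Their scaled 5hmC was 0.0444%, 0.0456% and 0.0699%. The CpG value exceeded the non-CpG value by 6.28 percentage points ± 1.96 and did so in all 3 replicates (exact sign-flip permutation test, p = 0.25, the smallest possible). At a C share of 0.568% in BS-seq the drop at non-CpG cytosines had no room to be large. They therefore give no measure of the error of the subtraction at methylated cytosines, and the comparison cannot decide on it.

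**Figure D1:**
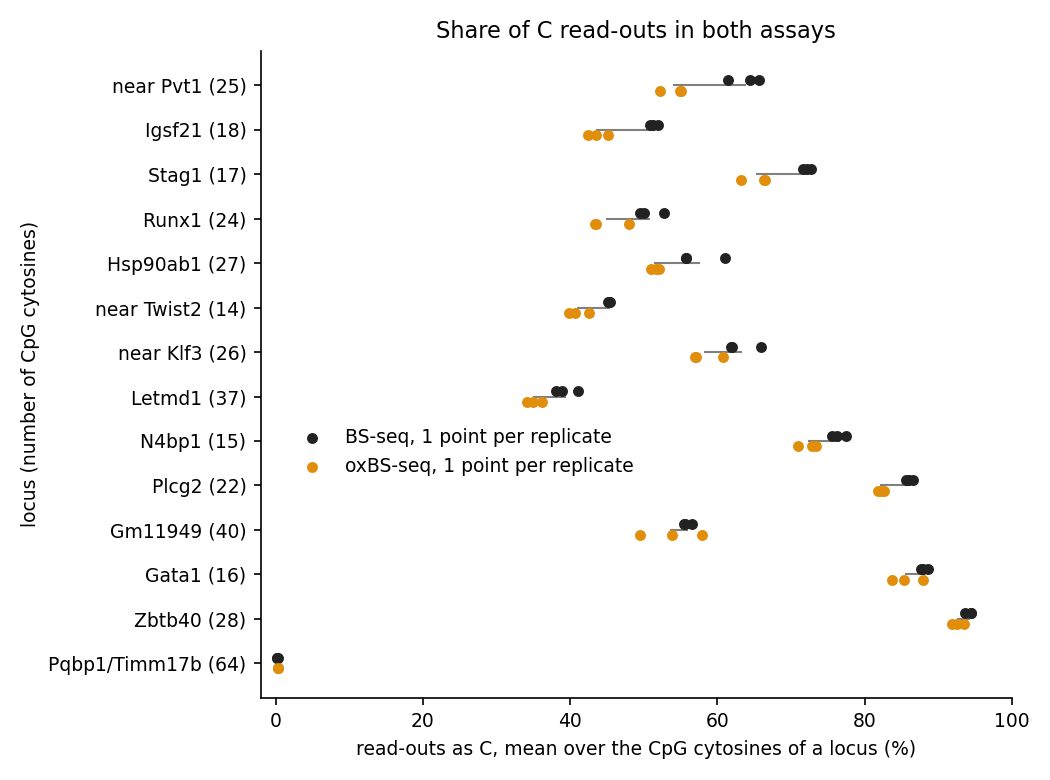
Share of C read-outs (%) in BS-seq (dark points) and oxBS-seq (orange points), averaged over the CpG cytosines of each locus, with 1 point per replicate and a grey line between the means of the assays; loci are ordered by scaled 5hmC and the number of CpG cytosines is in parentheses. Of the 14 loci plotted, 11 have the assays apart, and they overlap at Gm11949, Gata1 and Pqbp1/Timm17b.

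The loci differed widely in the C share in BS-seq and in scaled 5hmC. The mean C share in BS-seq ran from 39.3% at Letmd1 to 94.2% at Zbtb40 in 14 methylated loci, and all 3 BS-seq samples lay above all 3 oxBS-seq samples at 12 of the 15 loci, or 80%. Scaled 5hmC was above 0 in all 3 replicates at 13 loci, or 86.7%. With limma, on mean C shares per locus with assay and replicate as terms and Benjamini-Hochberg adjustment over the 15 loci, BS-seq was above oxBS-seq at 10 loci, or 66.7%. Among those 10 were the loci near Pvt1 and near Twist2 and those in Igsf21, Stag1, Runx1, Hsp90ab1, Letmd1, N4bp1 and Plcg2. The count rests on few samples, since it fell to 7 without replicate 1, to 4 without replicate 2 and to 0 without replicate 3.

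The highest scaled 5hmC stood in an intergenic locus on chromosome 15 (chr15:61868624-61868988, 25 CpG cytosines), 554 bp from Pvt1, a long noncoding RNA gene, and 46695 bp from Myc, the transcription factor gene beside it. Scaled 5hmC was 8.46%, 27.5% and 14.9% in replicates 1, 2 and 3, with a mean of 17.0% ± 9.70 (SD, n = 3). Replicate 2 stood well above the others, and without scaling it was also the highest, with drops of 6.39, 12.2 and 10.7 percentage points. All 25 CpG cytosines were above 0 in all 3 replicates, and 22 of them had a mean above 10%. The C share fell from 63.8% ± 2.18 in BS-seq to 54.0% ± 1.60 in oxBS-seq (limma, adjusted p = 0.00952), and 5hmC made up 26.6% of the modified cytosine.

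The 2 other intergenic loci held less scaled 5hmC. Near Twist2 (chr1:93674763-93675164), which encodes a basic helix-loop-helix factor and lies 22874 bp away, 14 cytosines were covered, all on the minus strand, with scaled 5hmC of 7.15%, 10.8% and 3.51% (limma, adjusted p = 0.0160). The locus near Klf3 (chr5:64987289-64987661, 26 cytosines), a zinc finger factor gene that is the nearest protein-coding one at 206967 bp, had 6.64%, 2.49% and 12.2%. BS-seq lay above oxBS-seq near Klf3 in all samples, but the adjusted p of 0.0599 missed the threshold, which it passed on the logit scale (limma, adjusted p = 0.00751) and without the replicate term. The logit fit has a limit, since it also called the unmethylated Pqbp1/Timm17b locus with oxBS-seq above BS-seq (limma, adjusted p = 1.73e-05).

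Igsf21 and Stag1 came next. Igsf21, a gene for an immunoglobulin superfamily protein of synapses, was covered at 18 intronic cytosines (chr4:139783570-139783907). They had scaled 5hmC of 9.82%, 20.1% and 9.51%, with a mean of 13.2% ± 6.05 (SD, n = 3; limma, adjusted p = 0.00637). Its C share in BS-seq was 51.4% ± 0.533, of which 25.6% was 5hmC, close to the share near Pvt1. Stag1, which encodes a cohesin subunit, was covered at 11 cytosines in a UTR and 6 in an intron (chr9:100498295-100498720). Scaled 5hmC there was 11.3%, 12.9% and 8.95%, with a mean of 11.0% ± 1.98 (SD, n = 3; limma, adjusted p = 0.00637), a narrower spread than in the loci above it. At Stag1 the C share in BS-seq was higher, 72.2% ± 0.530, and 5hmC made up 15.3% of it.

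4 loci lay mostly or wholly in coding exons. Runx1, a transcription factor gene of blood formation (chr16:92644291-92644782, 24 cytosines), had scaled 5hmC of 6.26%, 14.8% and 8.36% (limma, adjusted p = 0.00637). Hsp90ab1, which encodes the constitutive HSP90 chaperone (chr17:45706386-45706820, 27 cytosines), had 6.35%, 8.42% and 13.1% (limma, adjusted p = 0.0211). Their C shares in BS-seq were intermediate, 50.8% and 57.5%. Gata1, a transcription factor gene of red cell formation (chrX:7539243-7539675, 16 cytosines), had 5.57%, 1.67% and 3.21%. Zbtb40, a zinc finger protein gene (chr4:136547308-136547788, 28 cytosines), had 2.26%, 2.02% and 2.64%, the lowest of the methylated loci. Gata1 and Zbtb40 had C shares of 88.1% and 94.2% in BS-seq, and their adjusted p of 0.0632 and 0.0599 missed the threshold. On the logit scale limma called both, with adjusted p of 0.00766 and 0.00294, and Gata1 was also called at a coverage minimum of 100. The logit fit is the one that also called Pqbp1/Timm17b with oxBS-seq above BS-seq.

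Further gene loci held intermediate amounts. Letmd1, a mitochondrial protein gene covered at 13 coding and 24 intronic cytosines (chr15:100299982-100300461), had scaled 5hmC of 3.69%, 8.84% and 8.40% at a C share in BS-seq of 39.3%. N4bp1, a gene for a NEDD4-binding protein (chr8:89376776-89377095, 15 cytosines, 14 of them intronic), had 6.07%, 6.57% and 6.43%, the closest agreement between replicates relative to the mean. In introns of Plcg2, a phospholipase C gene of immune receptor signalling (chr8:120115553-120115846, 22 cytosines), the values were 4.37%, 7.54% and 6.60%. The adjusted p of these 3 loci lay between 0.00952 and 0.0166 (limma).

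At 2 loci the assays overlapped and limma on the C shares in percent gave a high p. Gm11949, an annotated pseudogene (chr11:3525591-3525968, 40 cytosines), had scaled 5hmC of 2.30%, 13.6% and -1.93%, so its mean of 4.67% ± 8.04 (SD, n = 3) rests on replicate 2 (limma, adjusted p = 0.291). The spread lay on its minus strand, with -0.54%, 15.1% and -7.30%, while the plus strand had 5.14%, 12.2% and 3.45%. The locus that spans Pqbp1, a polyglutamine-binding protein gene, and Timm17b, which encodes a subunit of the mitochondrial import machinery (chrX:7476281-7476698, 64 cytosines), was unmethylated. Its C share was 0.20%, 0.20% and 0.28% in BS-seq and 0.34%, 0.36% and 0.31% in oxBS-seq, and the unmodified lambda control had up to 0.217% and 0.401% in the same assays. Scaled 5hmC was -0.19% ± 0.17 (SD, n = 3) there.

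**Figure D2:**
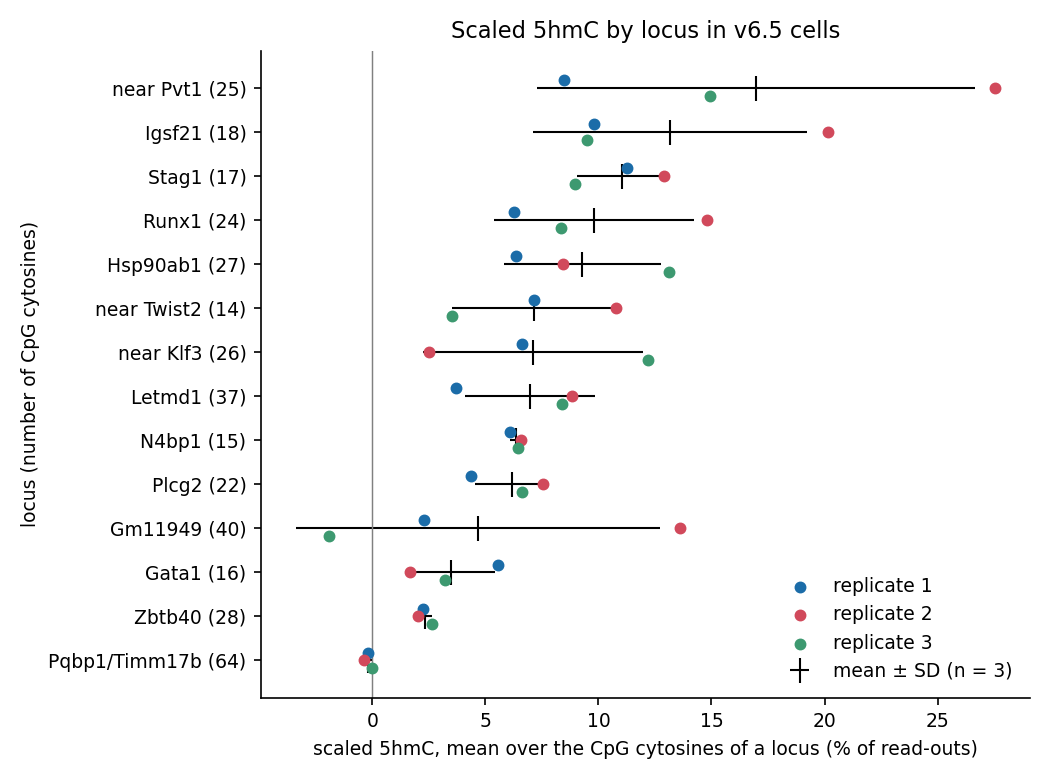
Scaled 5hmC (% of read-outs) averaged over the CpG cytosines of each locus, with coloured points for replicates 1 to 3 and the mean ± SD in black; the number of CpG cytosines is in parentheses. Replicate 2 is the highest at 9 of the 14 loci plotted, and the order runs from 17.0% near Pvt1 to -0.19% at Pqbp1/Timm17b.

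Replicates preserved the order of loci only roughly. The locus near Pvt1 had rank 3, 1 and 1 in replicates 1, 2 and 3, Igsf21 had rank 2, 2 and 4, and Stag1 had rank 1, 5 and 5. Of the 14 pairs of neighbours in the order, 1 had a difference of the same sign in all 3 replicates, namely Zbtb40 over Pqbp1/Timm17b, by 2.50 percentage points ± 0.149 (SD, n = 3). The other 13 pairs of neighbours did not differ beyond their spread. Over the 15 loci, Pearson's r of scaled 5hmC between pairs of replicates was 0.59, 0.66 and 0.49, where the points share the library and its efficiency and include the unmethylated locus. Replicate 2 had the highest scaled value at 9 loci but the highest unscaled drop at 4.

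Single CpG cytosines had a scaled 5hmC of -20.1% at the lowest and 32.0% at the highest, the median being 5.22% and the quartiles 0.37% and 11.0%. It was above 0 in all 3 replicates at 195 cytosines, or 48.9%, against 18.3% of all 2497 cytosines, CpG and non-CpG. It was below 0 in all 3 replicates at 11 cytosines, or 2.76%, against 5.41% of all. The means exceeded 10% at 117 cytosines and 20% at 15. All 3 BS-seq samples lay above all 3 oxBS-seq samples at 149 CpG cytosines, or 37.3%, against 11.9% of all cytosines. Between-locus differences made up 42.8% of the variance of scaled 5hmC over cytosines. That share includes the gap to the 64 cytosines of the unmethylated Pqbp1/Timm17b locus, with means between -2.30% and 0.456%. Once the locus means had been removed, Pearson's r between replicates was 0.12, 0.16 and 0.03, so the replicates hardly shared an order of cytosines inside a locus.

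The loci also differed in how many of their cytosines carried the signal. Scaled 5hmC was above 0 in all 3 replicates at 25 of 25 cytosines near Pvt1, 14 of 18 in Igsf21, 14 of 17 in Stag1 and 17 of 22 in Plcg2. In Plcg2 these were low values, since 3 cytosines had a mean above 10%, against 14 in Igsf21 and 13 in Stag1. At the other end, 8 of 28 cytosines in Zbtb40, 5 of 16 in Gata1 and 4 of 64 at Pqbp1/Timm17b were above 0 in all replicates, and none in Zbtb40 or at Pqbp1/Timm17b had a mean above 10%. Gata1 was read unevenly, with a median coverage of 3467.5 on the plus strand and 63.5 on the minus strand, where scaled 5hmC was 6.89%, 6.60% and 3.44% and 4.25%, -3.26% and 2.98%, respectively. Near Klf3 the wide spread lay on the plus strand, which had 7.77%, 2.69% and 19.6%, while the minus strand had 5.52%, 2.28% and 4.74%.

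No single cytosine passed the test. In quasi-binomial logistic regression on the C and T counts with assay and replicate as terms, with limma's moderation of the dispersion and Benjamini-Hochberg adjustment over 2361 cytosines, 0 cytosines were called, or 0%, and the smallest adjusted p of a CpG cytosine was 0.377. At an unadjusted p under 0.05, BS-seq was above oxBS-seq at 124 of 396 CpG cytosines, or 31.3%, and below at 3. Among 1965 non-CpG cytosines it was above at 72 and below at 34, and over all cytosines 8.3% were above. The count of 0 does not show that single cytosines lacked 5hmC. Without the replicate term 21 cytosines were called, 19 of them CpG. Summing the counts of the replicates and applying Fisher's exact test called 467 cytosines above and 178 below, 234 and 162 of them non-CpG, and it takes no account of the spread between replicates.

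**Figure D3:**
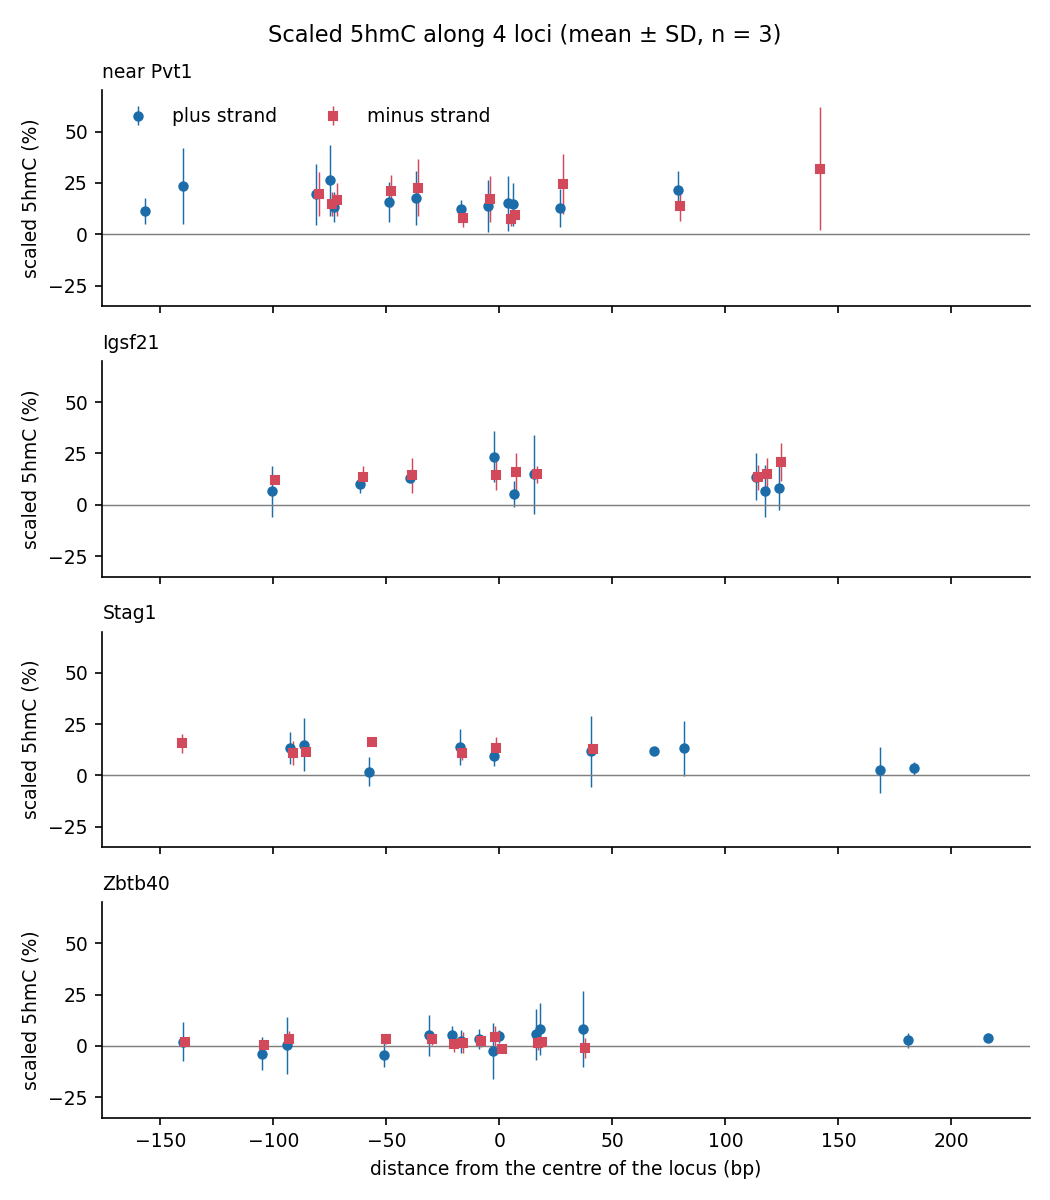
Scaled 5hmC (%) of each CpG cytosine against its distance (bp) from the centre of the locus, for the 3 loci with the highest means and for Zbtb40, the methylated locus with the lowest; circles are plus-strand and squares minus-strand cytosines, and bars are the SD of 3 replicates. All cytosines near Pvt1, in Igsf21 and in Stag1 have means above 0, while those of Zbtb40 lie between -4.36% and 8.39%, with a median of 2.41%.

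The highest value belonged to the minus-strand cytosine at position 61868948 near Pvt1, the first of the windows above. Its C share was 57.6%, 68.1% and 56.9% in BS-seq and 40.2%, 39.0% and 51.6% in oxBS-seq. Scaled 5hmC was thus 22.9%, 65.6% and 7.42%, with a mean of 32.0% ± 30.1 (SD, n = 3), which shows how far a single cytosine depends on replicate 2. The 10 highest cytosines had means between 21.1% and 32.0%, and replicate 2 was the highest in 9 of them. The closest replicates among them were those of position 61868758, also near Pvt1, with 16.3%, 30.3% and 16.9%.

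Steadier values were found among the highest cytosines of other loci. In Stag1 the minus-strand UTR cytosine at position 100498451 had scaled 5hmC of 17.2%, 14.9% and 16.4%, with a mean of 16.2% ± 1.17 (SD, n = 3). In N4bp1 the plus-strand intronic cytosine at position 89376869 had 14.8%, 21.2% and 16.6%, with a mean of 17.6% ± 3.31 (SD, n = 3). Coverage at both was at least 758 read-outs in every sample. Other highest cytosines were thinly covered, with a lowest coverage of 90 read-outs in Igsf21, 73 in Letmd1, 65 in Runx1, 55 in Zbtb40 and 40 at Pqbp1/Timm17b.

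The highest cytosine of the remaining loci had a wide spread between replicates. In Igsf21 the intronic cytosine at position 139783736 had 9.80%, 33.6% and 27.1%. In Runx1 the intronic cytosine at position 92644670 had 7.39%, 49.9% and 13.2%. Near Klf3 position 64987442 had 11.9%, 26.4% and 31.5%. These 3 were above 0 throughout, with replicate 1 the lowest of each. The highest means were 20.9% ± 11.4 in Hsp90ab1 (position 45706482), 20.5% ± 17.7 in Letmd1 (position 100300339), 17.5% ± 24.4 in Gm11949 (position 3525644) and 16.2% ± 7.39 near Twist2 (position 93674901). They were lower in Plcg2 (position 120115794, 14.5% ± 6.42), Gata1 (position 7539417, 11.5% ± 7.21), Zbtb40 (position 136547585, 8.39% ± 18.4) and Pqbp1/Timm17b (position 7476496, 0.456% ± 0.789). All are SDs of 3 replicates, and BS-seq was above oxBS-seq without overlap at 12 of the 15 highest cytosines, which were picked for that difference.

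At the other end, 4 highly methylated cytosines in coding exons had scaled 5hmC near 0. The minus-strand cytosine of Zbtb40 at position 136547444 was the steadiest, with 0.365%, -0.229% and 1.45% at a coverage of at least 2299 read-outs, and its C share was 94.8%, 93.0% and 94.0% in BS-seq. The cytosines at position 89377076 in N4bp1, 7539593 in Gata1 and 136547454 in Zbtb40 had means of -0.106% ± 8.65, 0.259% ± 6.92 and 0.394% ± 13.9 (SD, n = 3), so a moderate amount of 5hmC was not detectable there. The 3 lowest means of all were -20.1% ± 56.8 in Letmd1 (position 100300291), -10.6% ± 8.78 in Runx1 (position 92644604) and -8.96% ± 7.35 in Gm11949 (position 3525868). The first had only 15 read-outs in one sample.

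The mean was highest at cytosines of fairly high methylation. At a C share of 60% to 80% in BS-seq, scaled 5hmC was 7.58%, 14.9% and 10.2% in replicates 1, 2 and 3 (97 cytosines in 13 loci). Below it, the means were 8.20% ± 3.19 at 40% to 60% and 6.82% ± 4.50 at 20% to 40% (SD, n = 3). At 80% to 100% scaled 5hmC was 4.84%, 4.69% and 4.48% (109 cytosines in 12 loci), lower than at 60% to 80% in every replicate. Part of this goes with the locus: relative to the mean of their locus, the cytosines stood at -1.39 percentage points for a C share of 20% to 40%, -0.47 for 40% to 60%, 1.44 for 60% to 80% and -0.25 for 80% to 100%, so inside loci the classes under 60% were not above the highest class. As a share of the modified cytosine, 5hmC fell from 21.5% at 20% to 40% over 16.3% and 15.9% to 5.23% at 80% to 100%. Across the 14 methylated loci Pearson's r of mean scaled 5hmC with the C share in BS-seq was -0.46, and both measures hold the same BS-seq samples. The classes of cytosines were likewise formed from the BS-seq shares that enter scaled 5hmC. An error in such a share moves class and value together, also relative to the locus mean, and the share of modified cytosine is divided by it.

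Both cytosines of a CpG were covered in 171 CpGs, which made it possible to compare strands. On the plus strand scaled 5hmC averaged 6.74% and on the minus strand 5.52%. The difference was 1.68, -0.434 and 2.42 percentage points in replicates 1, 2 and 3 (exact sign-flip permutation test, p = 0.5), less than its SD of 1.48. In the 144 methylated CpGs the C share in BS-seq was nearly the same on both strands, with a median absolute difference of 2.77 percentage points and Pearson's r of 0.97. Scaled 5hmC was less alike, with a median absolute difference of 4.45 percentage points and r of 0.39. Both strands exceeded 10% at 29 of these CpGs, 1 strand at 39 and neither at 76. Over all CpG cytosines of the map, the median SD of scaled 5hmC between replicates was 5.60 percentage points. The median strand difference of 4.45 is taken from means of 3 replicates in methylated CpGs, so these numbers are not directly comparable. Whether the strands of single CpGs differ beyond the spread between replicates was not tested. The strands are separate molecules in these libraries and the points share library and locus.

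**Figure D4:**
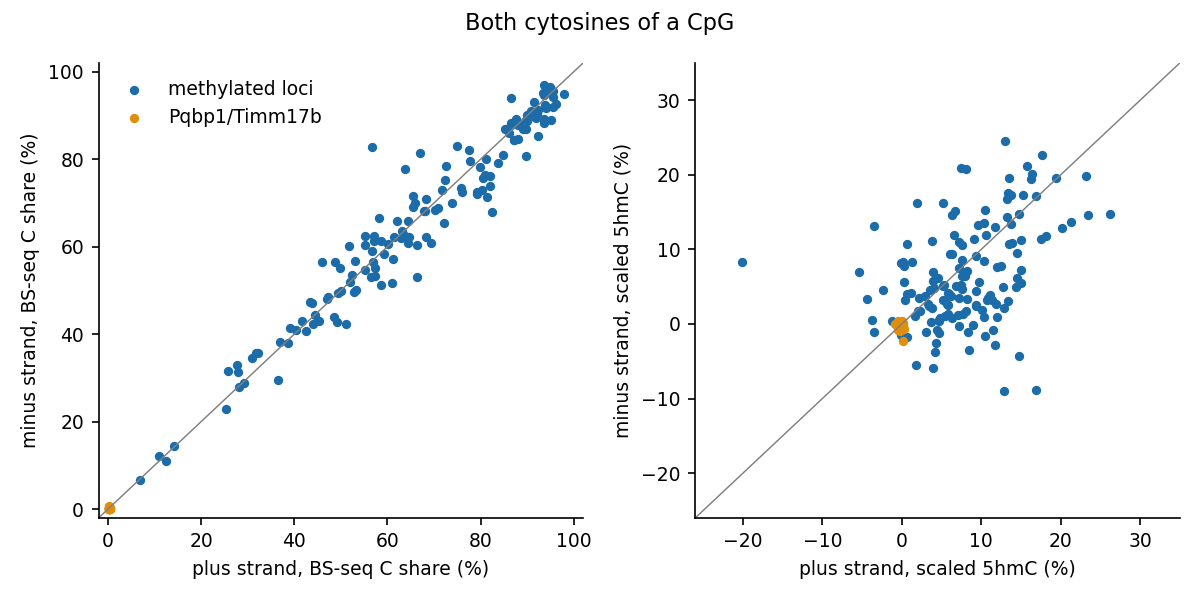
Plus-strand against minus-strand values of CpGs with both cytosines covered, as the C share in BS-seq (%, left) and as scaled 5hmC (%, right), each the mean of 3 replicates, with the diagonal in grey. In the 144 CpGs of methylated loci, points hug the diagonal for the C share (r = 0.97) and scatter widely for scaled 5hmC (r = 0.39), while the unmethylated Pqbp1/Timm17b locus sits near 0 in both.

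The base before the CpG went along with scaled 5hmC, a feature picked after the v6.5 values were seen, so no test of it in v6.5 counts as support. In the 14 methylated loci, 103 cytosines after an A had 6.85%, 13.4% and 7.62% in replicates 1, 2 and 3. The 73 cytosines after a T had 3.61%, 4.79% and 4.58%, lower in every replicate. After a C it was 7.05%, 10.6% and 8.05%, above the value after an A in replicates 1 and 3. The mean was 8.58% ± 1.85 after a C and 7.09% ± 3.23 after a G (SD, n = 3). The C share in BS-seq was 64.6% after an A and 63.3% after a T. Relative to the mean of their locus, cytosines after an A stood 1.66 percentage points higher and those after a T 2.65 lower, and A was above T in 12 of the 14 loci, the exceptions being N4bp1 and Zbtb40.

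The contrast can also be read inside single CpGs, from a part of the same cytosines and values, so it is no independent finding. In 31 CpGs the cytosine follows an A on one strand and a T on the other, and scaled 5hmC was 9.29% on the first and 4.18% on the second. The difference was 4.51, 3.57 and 7.23 percentage points in replicates 1, 2 and 3, with a mean of 5.10 ± 1.90 (SD, n = 3), and it was above 0 in 22 of the 31. The C share in BS-seq differed by only 0.021 percentage points between these strands. The A stood on the plus strand in 24 of the 31, so strand and base are not separated. With at least 100 read-outs in each sample, 20 CpGs remained and the difference was 4.48 ± 0.437. In the same 31 CpGs of the Tet2 knock-down samples it was 6.73, -0.094 and 3.34 percentage points, above 0 in 2 of 3 replicates (exact sign-flip permutation test, p = 0.5). Its mean there was 3.32 ± 3.41 (SD, n = 3), and it was above 0 in 21 of the 31. Scaled 5hmC there was 5.95% after the A and 2.63% after the T. Other pairs of bases inside CpGs had smaller mean differences in v6.5. A exceeded C by 0.506 percentage points ± 0.741 and G by 1.68 ± 8.92 (SD, n = 3). C exceeded T by 2.04 ± 1.36, C exceeded G by 1.94 ± 2.45 and G exceeded T by 1.59 ± 3.38. Of these, only C over T was above 0 in all 3 replicates.

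**Figure D5:**
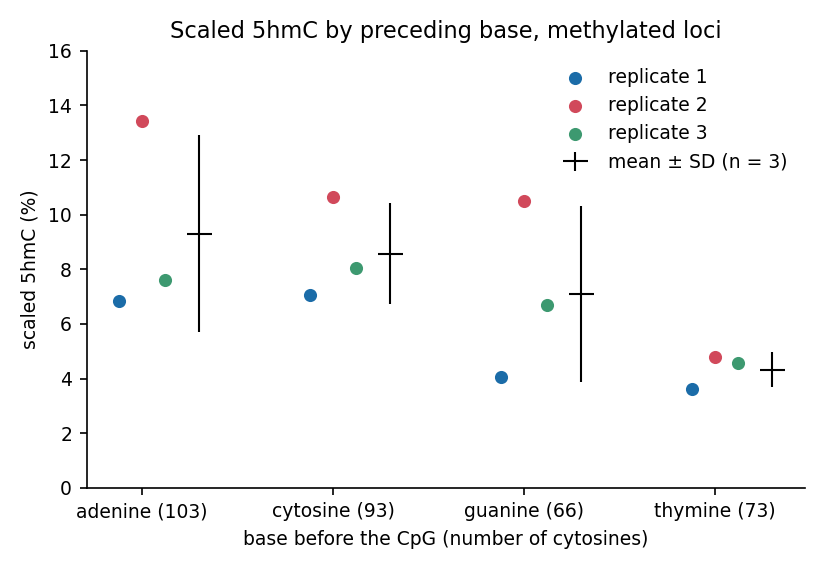
Scaled 5hmC (%) of CpG cytosines in the methylated loci by the base before the CpG, with coloured points for replicates 1 to 3, the mean ± SD in black and the number of cytosines in parentheses. Thymine has the lowest mean, 4.33%, and adenine the highest, 9.30%, while cytosine lies above adenine in replicates 1 and 3.

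Parental cells were set against the Tet2 knock-down cells at 384 CpG cytosines in 14 loci covered in all 12 samples. The v6.5 replicates had scaled 5hmC of 4.60%, 8.36% and 5.95%, the Tet2 knock-down replicates 5.77%, 2.86% and 6.52%. The means of 6.30% ± 1.90 and 5.05% ± 1.93 (SD, n = 3) differed by less than their spread (exact permutation test, p = 0.5). By locus v6.5 was higher at 10 of 14 and lower at 4. The largest gap lay near Pvt1, with 17.0% ± 9.70 against 5.91% ± 4.19, and the values overlapped. In Letmd1 v6.5 was lower, with 6.97% ± 3.18 against 16.5% ± 11.9, also with overlap. Values did not overlap at 3 loci, or 21.4%, among them Igsf21 (13.2% ± 6.05 against 3.65% ± 4.43) and Pqbp1/Timm17b. In limma with adjustment over the 14 loci, 0 were called, or 0%, with 1 locus at an unadjusted p under 0.05. Without division by the efficiency 1 locus was called, Igsf21 (limma, adjusted p = 0.0416). The oxidation efficiencies of the Tet2 knock-down replicates were 0.598, 0.512 and 0.438, a range that overlaps that of v6.5, and their part in these differences was not tested.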

How the data were processed

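The authors aligned paired-end MiSeq reads with Bismark 0.7.12 and Bowtie2 to mm9 and the lambda genome, and deposited, for each cytosine, unnormalized counts of read-outs as C and as T. The percent of C deposited beside the counts was used only to check them. Reads carry no molecular identifiers, so intervals cover counting error only: at 1498 read-outs a share near its middle has a Wilson 95% interval from 47.5% to 52.5%, at 10 read-outs from 23.7% to 76.3%.

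Deposited positions were raised by 1, strand and context were read from the mm9 sequence, and genes from GENCODE vM1 on that build. Covered cytosines over 5000 bp apart were put in different loci. No lambda genome was used here, so the Watson-strand control cytosines were told apart by their coverage profile. Efficiency is 1 minus the control's C share in oxBS-seq divided by its C share in BS-seq. Cytosines without a C or T in any sample were not tested, the dispersion was not allowed under 1, and the threshold was 0.05. limma 3.58.1 (R 4.3.3) and Python 3.11.15 were used, and the code was tested on simulated data.

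Purified DNA of a replicate was split between both assays per the labels, and the replicate number pairs them. Deviations of same-numbered samples from their assay means had correlations of 0.086, 0.065 and -0.001. Those of differently numbered samples lay between -0.082 and 0.004, so the counts themselves hardly show the pairing. Genotypes share only the number.

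1 locus enters the fits and counts and is not reported here. Named were each other locus, its highest CpG cytosine, the 10 highest CpG cytosines above 0 in all replicates and called, the 4 with a BS-seq share of at least 80% nearest to 0, and the 3 lowest. As none was called, the 10 were named without that condition, and no non-CpG cytosine was named. The members and this list were chosen with earlier results of these data known. Alternatives were other coverage minimums, scalings, tests and strands, and leaving out each replicate.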

Additional observations from a re-analysis of the deposited data

Results flagged for a closer look

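Scaled 5hmC of the Pqbp1/Timm17b locus was below 0 in all 3 v6.5 replicates and above 0 in all 3 Tet2 knock-down replicates, a difference of -0.56 percentage points between the means of -0.19% and 0.36%. The limma comparison of the genotypes did not call it (adjusted p = 0.685). The C share of the unmodified control lay between 0.178% and 0.401% in the v6.5 samples and between 0.141% and 0.260% in the Tet2 knock-down samples.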

How the results depend on the processing

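The mean scaled 5hmC of 6.33% became 3.83% without scaling and 18.1% with the control cytosines of both strands. Yet the other strand of the 5hmC control read between 99.8875% and 99.9169% C in BS-seq and between 99.9366% and 99.9537% in oxBS-seq. With counts summed over all cytosines it was -8.99%, and the unscaled drop was -6.30 percentage points. In that sum the unmethylated Pqbp1/Timm17b locus held between 39.9% and 71.6% of the BS-seq read-outs at CpG cytosines and between 34.3% and 48.9% of the oxBS-seq ones. With counts summed inside each locus and strand, a choice made after seeing the data, the values were 6.42% and 3.87, and without the unmethylated locus, chosen likewise, scaled 5hmC was 7.58%. Leaving out each replicate gave 5.25% to 7.14%. Called cytosines numbered 0 with the replicate term, 21 with no replicate block and 467 by Fisher's exact test. Called loci numbered 10, then 11 with no replicate block, which added the locus near Klf3, 11 at a coverage minimum of 100, 13 on the logit scale, which added those of Gata1, Zbtb40 and near Klf3 and where Pqbp1/Timm17b was called in the opposite direction, and 0 to 7 when a replicate was left out, which also removes a residual degree of freedom. Between the genotypes 0 loci were called, 0 also with the replicate block, and 1 without scaling. The replicate block changed no other call. The signs of the mean differences between CpG and non-CpG cytosines and between strands held under every alternative run for them. Of 203 alternative values of single loci 162 moved by less than 1 SD and 41 by more, and of 140 of named cytosines 138 and 2. Leaving out 1 of 3 replicates cannot move a mean by 1 SD, so such values could only fall under 1 SD. Where the SD is wide, large shifts also fall there. Without replicate 2 the Gm11949 locus fell from 4.67% to 0.19% and position 61868948 near Pvt1 from 32.0% to 15.2%. The counts therefore do not show that the values were steady.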
